A study of Caenorhabditis elegans with 4 samples.

Results

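miR-50, miR-62 and miR-90 are 3 microRNAs (miRNAs) of *Caenorhabditis elegans* that are described as sharing a seed and are counted with the miR-190 type of other animals. They were taken from the authors' table by name, as every row named cel-miR-50, cel-miR-62 or cel-miR-90 once a final arm suffix (3p or 5p) was removed. This gave 5 of the 205 listed mature miRNAs, from 3 of 132 hairpins. miR-50 and miR-90 were listed with both arms, and miR-62 was listed once without an arm name.

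Small RNA was sequenced from whole wild-type N2 Bristol animals, the standard laboratory strain, at the last larval (L4) stage. The 2 heat shocked (HS) libraries came from animals moved to 35°C and the 2 control (CTRL) libraries from animals held at 20°C, and the labels name no other allele or agent in either group. The labels give the length of the heat shock as 4 h in one field and 6 h in another, and the methods of the study give 6 h for small RNA. Levels below are the authors' mean normalized counts, that is, read counts divided by a size factor for each library and averaged over all libraries. These are taken to be the 4 libraries above, HS and CTRL together. The columns that compare HS with CTRL hold the authors' own result and were not used, so the values describe how much of each miRNA these pooled libraries held and no difference between HS and CTRL is given. The spread between libraries and the depth of each one are unknown, and no error or interval can stand beside a level.

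A miRNA is made as a hairpin whose arms, 5p and 3p, can each leave a mature strand of about the same length. One arm, the guide, is kept by an Argonaute protein, and the other, the passenger, is mostly lost. The seed, bases 2 to 8 from the 5′ end, does most of the pairing with target mRNAs, so miRNAs with a common seed can share targets. In this family the common seed is taken to lie on miR-50-5p, miR-90-3p and miR-62 from general knowledge, which was not checked against sequences here. miR-62 is a mirtron, a miRNA whose hairpin is an entire short intron released by splicing and debranching in place of a first cut by Drosha. The hairpins of miR-50 and miR-90 are of the ordinary kind, which Drosha cuts first.

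The 3 miRNAs stood at very different levels. miR-90-3p had a mean normalized count of 624322, which placed it at rank 6 of the 205 listed miRNAs and gave it 6.31% of their summed level. miR-62 had a mean normalized count of 1512. Its rank of 103 was the exact middle of the table, so that its level was also the median of all listed miRNAs. miR-50-5p had a mean normalized count of 131 at rank 182, and miR-50-3p had 121 at rank 184. miR-90-5p, the weaker arm of its hairpin, had 260 at rank 165. All 5 were thus above the lowest listed value of 51.5, by 2.35-fold for miR-50-3p and by 12120-fold for miR-90-3p.

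**Figure D1:**
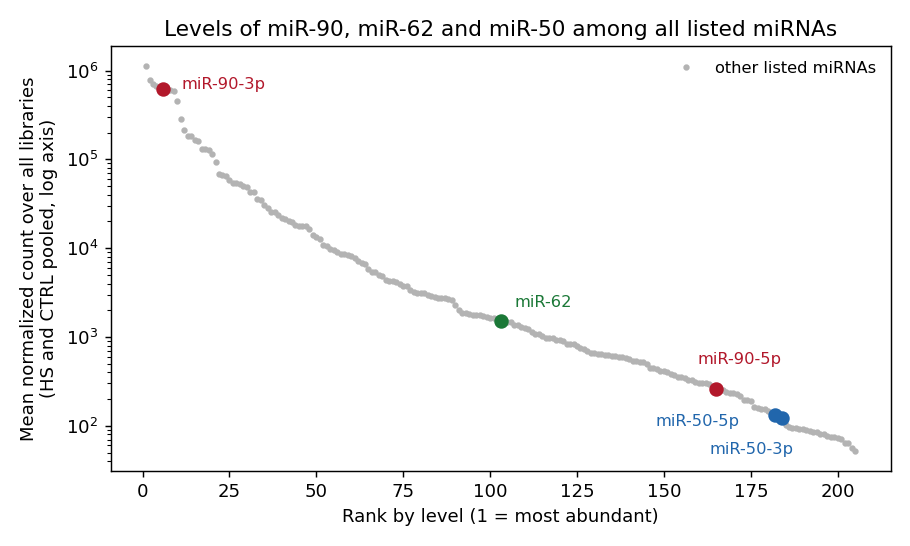
Mean normalized count of each listed miRNA over all libraries, HS and CTRL pooled (log axis), against its rank, with the arms of miR-90, miR-62 and miR-50 in colour and the other listed miRNAs in grey. miR-90-3p sits near the top at rank 6, miR-62 in the middle at rank 103, and both arms of miR-50 near the bottom at ranks 182 and 184.

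The miRNAs next to each of them in rank were close in level. miR-90-3p lay between miR-58-3p, of the worm bantam-related family, at 644614 mean normalized counts and miR-44-3p at 604592. The gap on either side was 1.03-fold. miR-62 lay between miR-252-5p at 1585 and miR-2214-5p at 1511, miR-90-5p between miR-82-5p at 267 and miR-790-5p at 253, and miR-50-5p between miR-67-5p at 134 and miR-2-5p at 130. miR-50-3p stood 1.07-fold under miR-2-5p and 1.18-fold over miR-260 at 103. With no spread between libraries to set beside these gaps, the order of such neighbours was not resolved. The order of miR-90-3p, miR-62 and miR-50-5p rests on wider gaps, which were not tested either.

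Since no normalized count can be under 0, the pooled mean sets a ceiling on what any library held. This takes the mean to cover exactly these 4 libraries. No single library, HS or CTRL, can have held more than 526 normalized counts of miR-50-5p, 485 of miR-50-3p or 6047 of miR-62. The mean of either group can be at most 263 for miR-50-5p and 3023 for miR-62. A pooled mean gives no such lower limit for one library or group.

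Among these 3 miRNAs, nearly all of the level of the arms taken to bear the common seed came from one hairpin. Seeds of the other listed miRNAs were not compared, so the pool below covers these 3 arms only. The arms, miR-90-3p, miR-62 and miR-50-5p, summed to 625965 mean normalized counts, which was 6.33% of the summed level of the table. miR-90-3p made up 99.7% of this pool, miR-62 0.241% and miR-50-5p 0.0210%. Put as ratios of mean normalized counts, miR-90-3p was 413-fold over miR-62 and 4750-fold over miR-50-5p, and miR-62 was 11.5-fold over miR-50-5p. Their annotated lengths are alike, at 23, 22 and 24 bases. Ligation and amplification can favour some small RNA sequences over others, so these ratios compare sequenced reads and not molecules.

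The arms of miR-90 and miR-50 were divided in opposite ways. In miR-90 the 3p arm had 624322 mean normalized counts against 260 for the 5p arm, a ratio of 2404. This was the third largest of the 73 hairpins listed with both arms, behind miR-82 at 4263 and miR-72 at 2558. Hairpins with an arm that was not listed have no ratio and are outside this ranking. One is miR-57, whose 5p arm stood at 665208 with no 3p arm listed, so hairpins more one-sided than miR-90 may be missing. The 5p arm of miR-90 held 0.0416% of the level of the hairpin. With no listed value under 51.5, a ratio this large needed an abundant higher arm. The higher arms of miR-82, miR-72 and miR-90 were at ranks 1, 2 and 6 by level. Those of miR-80 and miR-58, at ranks 3 and 5, had ratios of 40.1 and 282. The place of miR-90 is thus not independent of its high level. In miR-50 the 5p arm had 131 against 121 for the 3p arm, a ratio of 1.08, and the 5p arm held 52.0% of the hairpin. Only miR-800 at 1.08 and miR-797 at 1.01 were as even or more so, at the 72nd and 73rd places against the 71st of miR-50. Both arms must be listed, and no listed value was under 51.5. Whether this lowest value reflects a cutoff is not stated. If it does, miR-50, with its higher arm at 131, could show a ratio of at most 2.55. Its low level could then place it near the even end, so this place does not show that its strands are processed evenly. The median ratio over the 73 hairpins was 20.8, and 5 of them were at or over 1000 and 5 under 1.5.

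**Figure D2:**
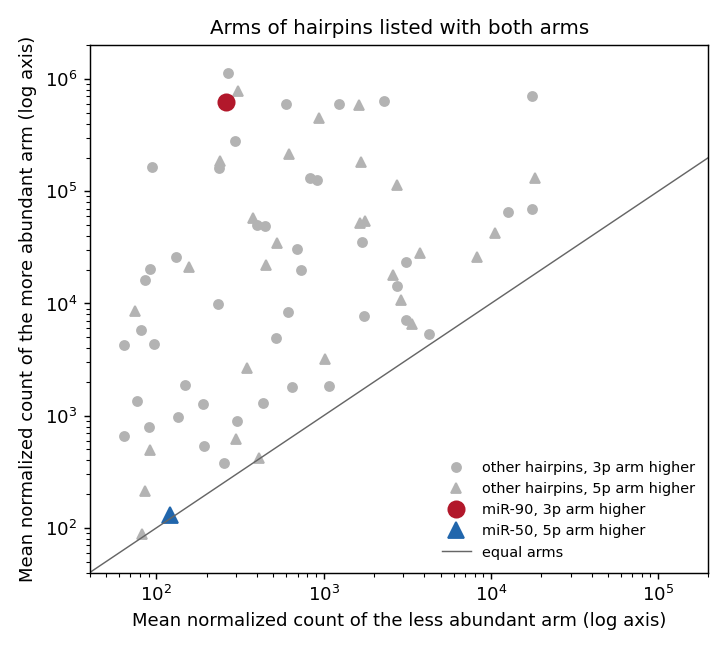
Mean normalized count of the more abundant arm against that of the less abundant arm (both log axes) for the hairpins listed with both arms, as circles where the 3p arm was higher and triangles where the 5p arm was higher. miR-90 (red) lies far above the line of equal arms with 624322 against 260, and miR-50 (blue) lies almost on it with 131 against 121.

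Which arm of miR-50 is the guide can therefore not be read from its level here. The arms differed by 10.1 mean normalized counts, and the spread between libraries is unknown. The strands that were low in each hairpin were closer to each other than the strands that were high, at 260 for miR-90-5p and 121 for miR-50-3p. As the lower arm, miR-50-3p could not lie above 131, nor below the lowest listed value of 51.5 if that was a cutoff. This closeness was therefore bounded by the low level of miR-50 and says nothing about passenger strands. Among the less abundant arms of the 73 hairpins, whose median was 453, miR-90-5p ranked 49th and miR-50-3p 60th.

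The hairpins lie on 3 chromosomes. On the WBcel235 assembly, with Ensembl release 115 annotation and positions counted from 1, the mir-90 hairpin is at 8873987 to 8874084 on the minus strand of chromosome III. Its 3p strand spans 8874001 to 8874023 and its 5p strand 8874047 to 8874069. The mir-62 hairpin is at 12692608 to 12692665 on the plus strand of chromosome X, with its mature strand at 12692644 to 12692665. The mir-50 hairpin is at 1738635 to 1738733 on the plus strand of chromosome I, with its 5p strand at 1738650 to 1738673 and its 3p strand at 1738692 to 1738713. None was near another member. The closest annotated miRNA gene was mir-238, 6.56 kb away from mir-90, and those closest to mir-62 and mir-50 were mir-56 and mir-8193, at 452 and 799.9 kb.

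All 3 hairpins were within introns of protein-coding genes and on the strand of the host. mir-90 is in an intron of K01F9.2, mir-62 in one of ugt-50, which is named as a UDP-glucuronosyltransferase gene, and mir-50 in one of tln-1, which encodes talin, a protein that links integrins to actin. Of the 129 hairpins of the table that were placed by name, 31 (24.0%) lay in a same-strand intron of a spliced gene. The more abundant arms of these 31 ran from 73.9 to 1136489 mean normalized counts with a median of 2965. miR-90 had the second highest level among them, miR-62 the 17th and miR-50 the 29th. Members of the family thus spanned most of the range that intronic miRNAs of the table covered.

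The fit between hairpin and intron differed among the 3. The mir-62 hairpin of 58 bases began and ended with the intron of ugt-50, with 0 intron bases left on either side, and this intron was annotated in 5 transcripts of the gene. Its mature strand took up the last 22 bases, up to the 3′ end of the intron, which is the 3p side. mir-50 has a hairpin of 99 bases in an intron of 299 bases of tln-1, with 107 bases before it and 93 after it. mir-90 has a hairpin of 98 bases in an intron of 4047 bases of K01F9.2, with 1278 bases before it and 2671 after it. Among the 31 intronic hairpins the median length of intron outside the hairpin was 1492 bases, so mir-50 was in a short intron and mir-90 in a long one.

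**Figure D3:**
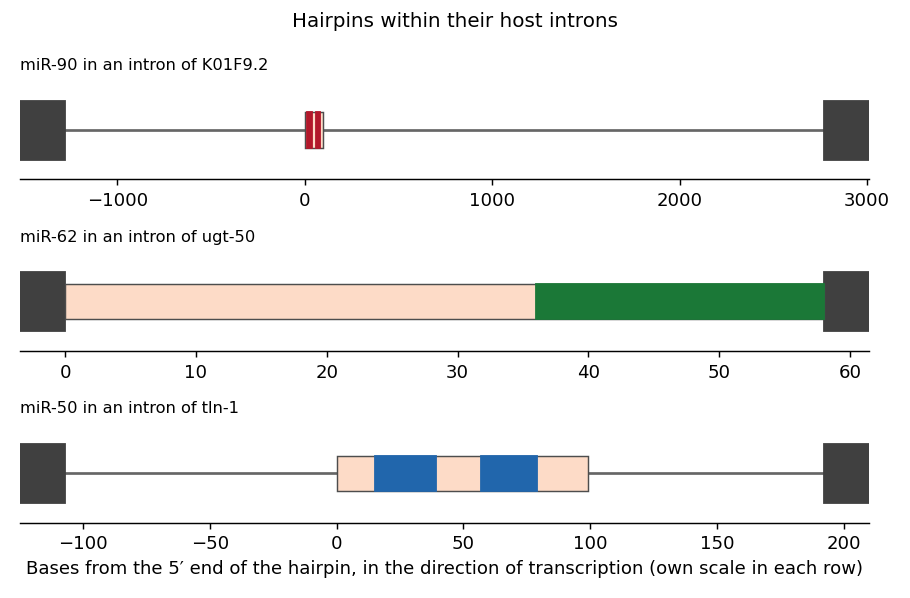
Position of each hairpin (pale box) and of its annotated mature strands (coloured boxes) within its host intron (line) between the flanking exons (dark boxes, cut short), in bases from the 5′ end of the hairpin and with a separate scale in each row. The mir-62 hairpin fills its intron of 58 bases, whereas those of mir-50 and mir-90 leave 200 and 3949 bases of intron outside the hairpin.

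miR-62 was compared with other mirtrons, taken as miR-62, miR-1018, miR-1019 and miR-1020 from general knowledge of the worm. Of these 4 hairpins, 3 were in the table. miR-62 was the most abundant at 1512 mean normalized counts, followed by miR-1020-3p at 840 and miR-1018 at 573, ratios of 1.80 and 2.64. Their hairpins, at 70 bases in T16G12.1 and 56 bases in Y59E1B.1, also filled their introns exactly. Across the placed hairpins of the table another, miR-4816 in T09B4.2, did so too, with a mean normalized count of 533. It was not on the list and was named for its position. All 4 were thus between 533 and 1512 mean normalized counts, below the median of 2965 over the 31 intronic hairpins. They are part of those 31, where they ranked 17th, 23rd, 25th and 26th by level. Hairpins that do not fill their intron also fell in this range, such as miR-2214 at 1511 and miR-124 at 617. Others lay above or below it, so such a level was not particular to hairpins that fill an intron. miR-62 was also the 8th most abundant of the 20 miRNAs listed without an arm name, whose median was 860.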

How the data were processed

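The authors prepared TruSeq small RNA libraries from Trizol-extracted RNA of 2 HS and 2 CTRL samples, mapped reads to *C. elegans* miRNAs and compared the groups in DESeq2. The aligner and the miRNA reference used for this step, how multiply matching reads were treated, and the version of DESeq2 are not given in the sources used here. The deposited table holds 1 row per miRNA. Its signal column, per the file header, averages the depth-scaled counts (each divided by the size factor of its library) of all libraries, and was the only column of values used. The other 2 columns hold the authors' log2 fold change and adjusted p and were not used. This scaling corrects for depth, not for ligation or amplification, and shared reads between similar miRNAs cannot be seen.

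Libraries were grouped by title. Because no column belongs to a single library, no test was run, depth is unknown, and no interval could be given. Levels were ranked, summed and divided between arms in Python 3.11.15 with pandas 2.3.3, with functions tested on simulated data. Hairpins were matched by name to Ensembl release 115 (WBcel235, the assembly of the WS235 genome that the study names for its long RNA reads), and 129 of 132 were placed. The host intron was the shortest one that enclosed the hairpin. The text names the 5 rows, the miRNAs next to them in rank and a list of 4 mirtrons, and other miRNAs where they stand beside a rank or position. Members and lists were chosen with earlier results of these data known. The alternatives tried were the rows or hairpins ranked, a minimum of 100 or 1000 mean normalized counts, a pseudocount of 10, and the arms summed.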

Additional observations from a re-analysis of the deposited data

How the results depend on the processing

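No paired analysis was possible because the values used are averages over HS and CTRL libraries together. Leave-one-out fits, edgeR and DESeq2 could not be run on such averages. Other lengths of seed, and the rank of this seed among the other seeds of the table, were not run. With no spread between libraries, a value was taken as moved if it changed by more than 1.5-fold. Several alternatives could not have moved a value that far. Leaving out the most abundant miRNA raised all 5 shares by one common factor, to 7.13% for miR-90-3p, a minimum removed only rows below the members it kept and so fixed their ranks, and the arms added to the pool were too low to shift its division. With each hairpin taken at its more abundant arm, miR-90, miR-62 and miR-50 ranked 6th, 81st and 124th of 132. A pseudocount of 10 on each arm gave arm ratios of 2314 for miR-90 and 1.08 for miR-50. It is small beside their lower arms of 260 and 121, so it could not have moved either ratio by 1.5-fold. Among the 60 hairpins with both arms at 100 or more they ranked 3rd and 59th. With a higher arm of 131, miR-50 could only be near the even end of that set. Over all 5 listed arms, miR-90-3p made up 99.7% of the level. Of these ranks and arm ratios, none moved by more than 1.5-fold. Ranks among 132 hairpins and among all 205 rows are on unlike scales, however, and so are ranks among 60 and 73 hairpins. A fold between such ranks does not measure how stable a rank was. A minimum of 100 kept all 5 rows and one of 1000 kept 2. The depth of the libraries is unknown, and its effect on each level was not measured.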
